A study of Homo sapiens with 2 samples.

Results

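The genes described here make up the folding and quality control machinery of the endoplasmic reticulum (ER), and were taken by name from a list of 36. A gene counted as measured when the array's annotation gave it, and no other gene, at least 1 probe set among the deposited values. By this rule 34 of the 36 genes were measured, through 86 probe sets, out of 17689 genes in all. PDIA5 and SYVN1 had no such probe set. They fall into 5 roles: stress sensors with the transcription factor XBP1 (5 genes), chaperones and co-chaperones (12), enzymes of disulfide bond formation (6 of 7 measured), ER-associated degradation (9 of 10 measured) and the SEC61 translocon (2).

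RNA came from LNCaP, an androgen-responsive human prostate carcinoma line, and was read on the Affymetrix U133 Plus 2.0 array. The control culture was infected with virus made from pLKO.1 without an insert. The knockdown culture received a KDM4A-specific short hairpin RNA in a lentivirus. KDM4A is a histone lysine demethylase. Both were harvested 3 days after infection, and the virus for both had been made in HEK293T cells. There was 1 array per group and 1 hairpin construct is named, so no test over replicates exists and no p-value is given.

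Secreted and membrane proteins enter the ER through the SEC61 channel, are folded by chaperones and disulfide isomerases, and are sent back to the cytosol for degradation when folding fails. When unfolded protein accumulates, the sensors ERN1, EIF2AK3 and ATF6 start the unfolded protein response: ERN1 splices the XBP1 messenger RNA, EIF2AK3 phosphorylates the initiation factor eIF2 and so favours translation of ATF4, and ATF6 is cut in the Golgi to release a transcription factor. Secretory epithelia such as the prostate make heavy use of this machinery. ATF6 and spliced XBP1 act on chaperone promoters through the ER stress response element.

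Promoter sequences of 300 bases, from 250 before to 50 after each annotated gene start (RefSeq, GRCh38.p14), were given for 33 of the 36 genes, and not for DERL1, DERL3 and PDIA3. They were searched on both strands for 2 forms of the element. ERSE was CCAAT, any 9 bases and CCACG, and ERSE-II was ATTGG, 1 base and CCACG. ERSE lay in 7 of 33 member promoters (21.2%) and in 22 of all 27305 promoters (0.0806%). ERSE-II lay in 3 of 33 (9.09%) and in 15 of 27305 (0.0549%). Each form thus contains a CCACG, and each a CCAAT, which ERSE-II carries on the other strand as ATTGG; alone, CCACG occurred in 66.7% of member promoters and 37.9% of all, and CCAAT in 78.8% and 35.7%. A match is a description of letters, not evidence of binding.

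The 12 matches in 10 genes are shown because few promoters outside this machinery hold them. Each line gives the element with up to 10 bases on either side, 5′ to 3′ along the strand on which it reads forward. Capitals mark its outer 5-base parts.
CALR ERSE, chr19:12938374-12938412, minus strand: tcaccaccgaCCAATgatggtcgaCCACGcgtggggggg
CANX ERSE, chr5:179698768-179698806, plus strand: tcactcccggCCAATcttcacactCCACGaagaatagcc
CRELD2 ERSE, chr22:49918544-49918582, minus strand: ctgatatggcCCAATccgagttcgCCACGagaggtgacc
ERO1B ERSE, chr1:236282173-236282208, plus strand: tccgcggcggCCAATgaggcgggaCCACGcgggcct
HSP90B1 ERSE, chr12:103930206-103930244, plus strand: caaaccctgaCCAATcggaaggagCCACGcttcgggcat
HSP90B1 ERSE, chr12:103930311-103930349, minus strand: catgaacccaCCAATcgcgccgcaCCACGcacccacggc
HSPA5 ERSE, chr9:125241381-125241419, minus strand: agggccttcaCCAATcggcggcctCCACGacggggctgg
XBP1 ERSE, chr22:28800593-28800631, minus strand: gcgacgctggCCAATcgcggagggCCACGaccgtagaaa
HERPUD1 ERSE-II, chr16:56932015-56932045, plus strand: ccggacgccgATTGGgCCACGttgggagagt
HYOU1 ERSE-II, chr11:119057370-119057400, plus strand: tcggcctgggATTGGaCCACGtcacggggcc
HYOU1 ERSE-II, chr11:119057264-119057294, plus strand: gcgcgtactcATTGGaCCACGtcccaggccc
SDF2L1 ERSE-II, chr22:21642104-21642134, minus strand: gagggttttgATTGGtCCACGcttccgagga

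The element sat in genes whose differences ran from -0.71 to 0.44: the chaperones HSPA5, HSP90B1, CALR, CANX, HYOU1, CRELD2 and SDF2L1, the oxidase ERO1B, the degradation gene HERPUD1 and XBP1. Values here and below are log2 differences, knockdown minus control, of a gene's probe sets, averaged. Over the 10 genes with either form the median difference was -0.0034, with 5 genes below 0, 5 above and 1 past 1.5-fold (ERO1B). Over the 21 measured members whose promoters held neither, the median was -0.16, with 15 below 0 and 4 at least 1.5-fold lower. Of all measured genes, 10.0% of the 30 with either form and 4.46% of the 13854 with neither were at least 1.5-fold lower. In HYOU1 the upstream ERSE-II match, which begins 185 bases before the start, overlapped a TGACGTGG match that begins at 188 bases before it. TGACGTGG, whose other strand contains CCACG, lay in 2 of 33 member promoters, the other being that of DNAJC10, and in 0.795% of all. TGATGCAAT, a form of the amino acid response element bound by ATF4, lay in 0 of 33 and in 0.264% of all.

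**Figure D1:**
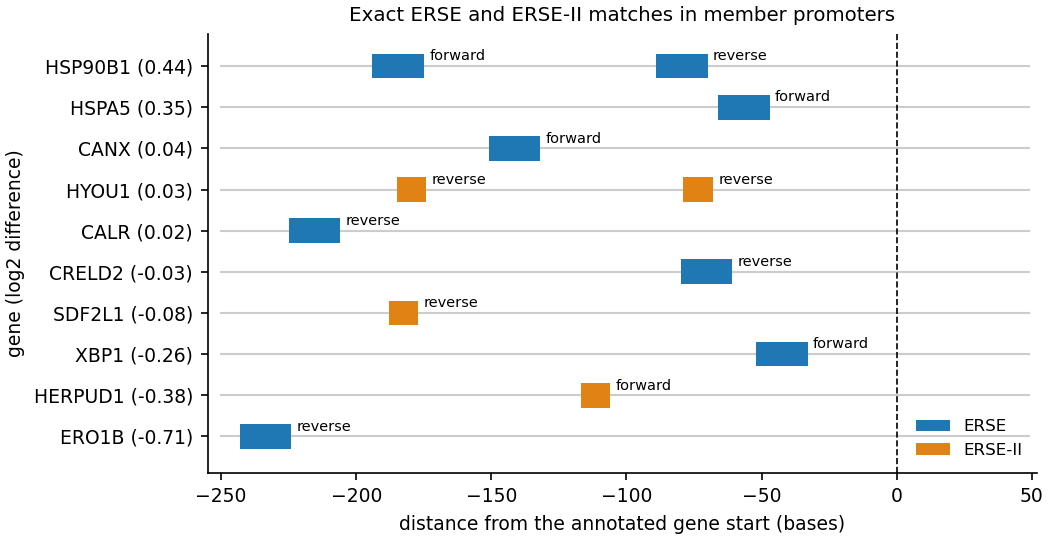
Positions of exact ERSE (blue) and ERSE-II (orange) matches, in bases from the annotated gene start (dashed line), in the 10 member promoters that hold one; forward and reverse give the strand relative to the gene, and the number beside each name is its log2 difference, knockdown minus control. Genes are ordered by that difference, from HSP90B1 (0.44) at the top to ERO1B (-0.71) at the bottom.

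Whole promoters follow for 3 genes chosen for contrast after their values were seen: HSPA5, with an ERSE and a difference above 0; ERO1B, with an ERSE and a difference past 1.5-fold; and DNAJB9, past 1.5-fold with both short motifs but neither paired element. Capitals mark every CCAAT and CCACG on either strand, of which HSPA5 held 5 and 1, ERO1B 1 and 2, and DNAJB9 1 and 2.
HSPA5, chr9:125241294-125241593, minus strand: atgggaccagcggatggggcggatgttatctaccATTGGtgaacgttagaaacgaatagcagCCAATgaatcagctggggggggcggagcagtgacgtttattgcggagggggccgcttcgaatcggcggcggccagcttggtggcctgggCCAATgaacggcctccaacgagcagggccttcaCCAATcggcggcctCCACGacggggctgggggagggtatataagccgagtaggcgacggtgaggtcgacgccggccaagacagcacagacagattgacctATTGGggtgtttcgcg
ERO1B, chr1:236281909-236282208, minus strand: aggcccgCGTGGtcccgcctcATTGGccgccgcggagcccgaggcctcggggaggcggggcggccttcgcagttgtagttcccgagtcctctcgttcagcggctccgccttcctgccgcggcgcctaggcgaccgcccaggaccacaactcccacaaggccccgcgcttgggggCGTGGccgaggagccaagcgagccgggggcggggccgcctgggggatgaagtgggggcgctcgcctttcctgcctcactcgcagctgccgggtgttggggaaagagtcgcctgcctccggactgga
DNAJB9, chr7:108569624-108569923, plus strand: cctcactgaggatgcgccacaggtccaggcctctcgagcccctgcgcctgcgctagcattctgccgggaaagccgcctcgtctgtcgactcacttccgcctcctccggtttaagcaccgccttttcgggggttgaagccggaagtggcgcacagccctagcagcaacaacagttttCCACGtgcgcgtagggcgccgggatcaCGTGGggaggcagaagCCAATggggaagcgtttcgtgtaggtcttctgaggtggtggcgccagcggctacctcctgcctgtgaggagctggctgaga

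The deposited values are RMA-normalised log signals, taken as log2, minus the mean of the 2 arrays, so the control and knockdown values of a probe set mirror each other around 0 and signal levels are lost. Whether a gene was expressed, and which gene was the more abundant, cannot be read from them. The ± SD given below is taken over the probe sets that read the same gene. It covers probe noise and isoforms and not the spread between cultures; pooled over the 8944 genes read by several probe sets it was 0.33. The median of all 17689 gene differences was 0.020, and their quartiles were -0.14 and 0.18. KDM4A itself read -0.90 and -1.46 in its 2 probe sets. Markers of the prostate luminal cell had a median of 0.25 over 8 measured genes, from -0.76 (TMPRSS2) to 0.48 (FOLH1); those of the packaging cells lay between -0.34 and 0.49 over 5 genes, and those of fibroblasts between -0.35 (VIM) and 0.73 (COL1A1) over 7. Their part in the results was not tested, and centring leaves no level by which to check the cell line.

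Genes are called lower or higher below when their mean difference was at least 1.5-fold, 0.58 on the log2 scale. By this rule of size 5 of 34 members (14.7%) were lower, against 4.38% of all genes, and 0 of 34 were higher, against 4.3% of all genes. The 5 were SEC61A1, ATF6, DNAJB9, DNAJC3 and ERO1B, which come from 4 of the 5 roles; no degradation gene was among them. None of the 34 reached 2-fold, a size passed downward by 1.44% and upward by 1.16% of all genes. The median of the members was -0.064, and 21 of 34 (61.8%) lay below 0, against 46.3% of all genes. Within 0.2 of 0 on the log2 scale lay 16 of the 34. Both quartiles of all genes, -0.14 and 0.18, also lay inside that range, so the members were not unusually close to 0. In bulk RNA, fewer cells of a kind and less RNA per cell cannot be told apart.

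At the level of single probe sets, 13 of 86 (15.1%) were at least 1.5-fold lower and 2 (2.33%) at least 1.5-fold higher, against 6.37% and 5.5% of all probe sets with 1 gene. In 13 of the 27 members read by several probe sets, every one lay below 0, and in 3 every one lay above it. These 16 are 59.3% of the 27. Such agreement, in either direction, was found in 50.3% of the 8944 genes read by several. That share was not split by direction, so the 13 and the 3 have no share of all genes beside them. In 7 of the 27 members the spread between probe sets exceeded the pooled SD.

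**Figure D2:**
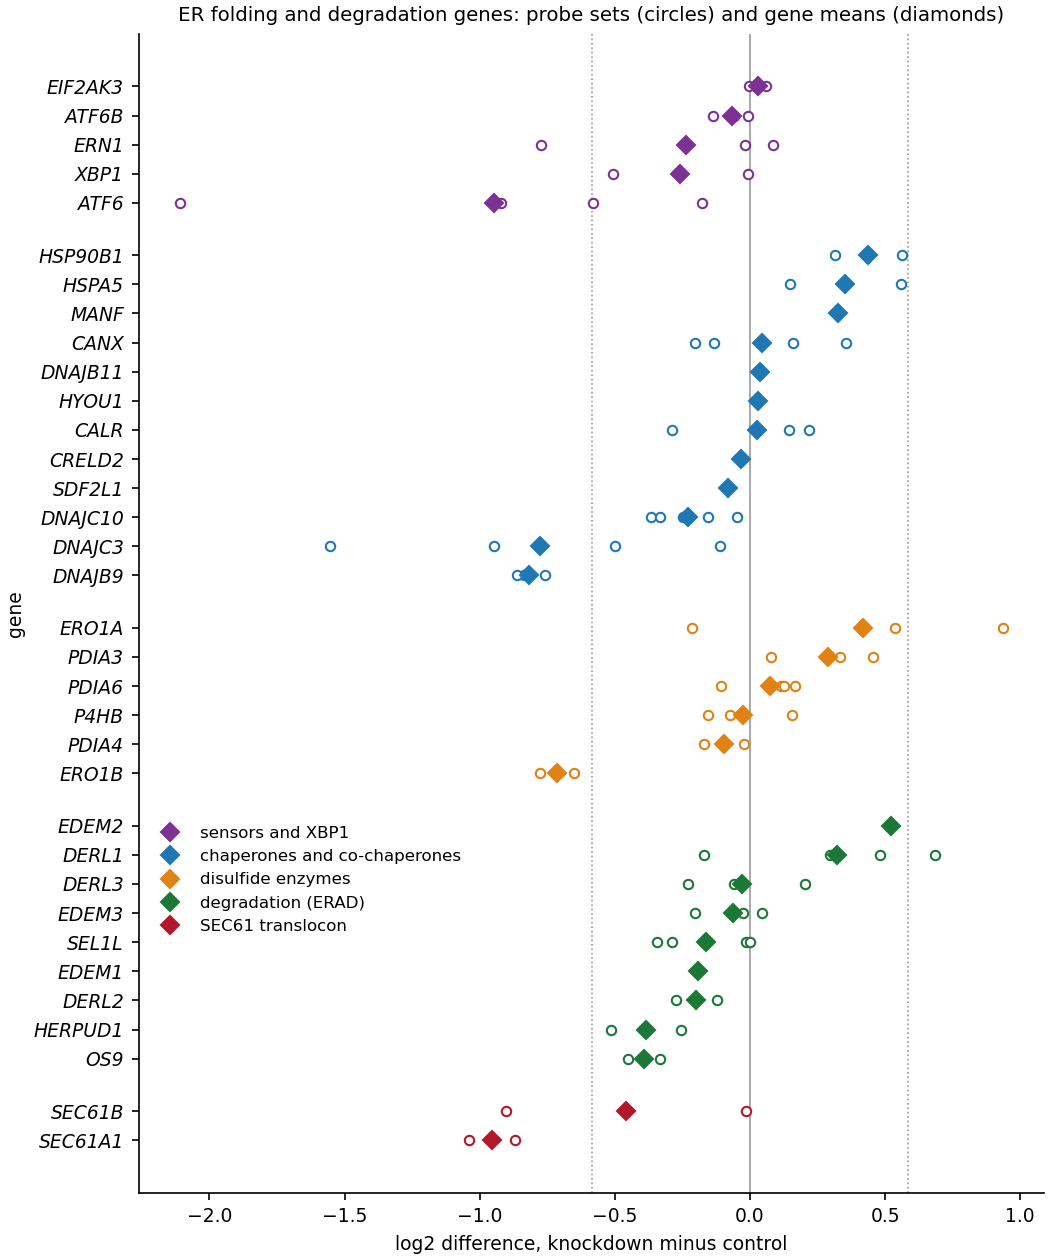
Log2 difference, knockdown minus control (horizontal axis), for every probe set (open circles) and the mean (filled diamonds) of the 34 measured genes, coloured by role and sorted within it; dotted lines mark 1.5-fold in either direction. The 5 diamonds left of the lower line are ATF6, DNAJB9, DNAJC3, ERO1B and SEC61A1, and none lies right of the upper line.

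Of the sensors, ATF6 alone passed 1.5-fold. ATF6, the membrane-bound transcription factor released by cleavage, read 0.47 in the control array and -0.47 in the knockdown array, a difference of -0.95 ± 0.83 (SD, n = 4 probe sets), or 1.93-fold lower. Its probe sets read -0.18, -0.58, -0.92 and -2.11, so all 4 lay below 0 but over a wide range. Without the farthest of them the gene lay at -0.56, inside 1.5-fold. Its paralog ATF6B, by contrast, lay at -0.068 ± 0.065 (SD, n = 3 probe sets).

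EIF2AK3, the kinase also known as PERK, lay at 0.028 ± 0.046 (SD, n = 2 probe sets). ERN1, the kinase and RNase, lay at -0.24 ± 0.47 (SD, n = 3 probe sets), which came from a single probe set at -0.77 beside others at -0.018 and 0.085. XBP1, the transcription factor whose messenger ERN1 splices, lay at -0.26 ± 0.35 (SD, n = 2 probe sets), with probe sets at -0.51 and -0.0078. For ERN1 and for XBP1 the difference thus rested mainly on 1 probe set, although both XBP1 probe sets lay below 0. These probe sets were not shown to tell spliced from unspliced XBP1 RNA, so splicing was not measured.

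Of the large chaperones, HSPA5 and HSP90B1 lay above 0. HSPA5 (BiP), the central Hsp70 chaperone of the ER, read -0.18 in the control and 0.18 in the knockdown array, a difference of 0.35 ± 0.29 (SD, n = 2 probe sets) from probe sets at 0.15 and 0.56. HSP90B1, the ER member of the Hsp90 family, read -0.22 and 0.22, a difference of 0.44 ± 0.18 (SD, n = 2 probe sets); both of its probe sets, at 0.31 and 0.56, are of the kind that can match several transcripts. These were the highest of the 12 chaperones, and both fell short of 1.5-fold. When probe sets also given to another gene were added, HSP90B1 lay at 0.33, below HSPA5.

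MANF, a secreted ER-resident factor that binds HSPA5, lay at 0.33 on 1 probe set. HYOU1, which exchanges nucleotide on HSPA5, lay at 0.031 on 1 probe set. The lectin chaperones, which hold glycoproteins through their sugar chains, lay at 0.025 ± 0.27 (SD, n = 3 probe sets) for CALR and 0.044 ± 0.23 (SD, n = 5 probe sets) for CANX. In each of these lectins, probe sets lay on either side of 0. CALR turned to -0.29 on the 1 probe set left without those that can match several transcripts. SDF2L1 (-0.082) and CRELD2 (-0.032), which are ER stress-inducible proteins of the lumen, rested on 1 probe set each.

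The J-domain proteins, which hand substrates to HSPA5 and stimulate its ATPase, did not move alike. DNAJB9 read 0.41 in the control and -0.41 in the knockdown array. Its 3 probe sets, at -0.84, -0.86 and -0.76, were the closest together of the lower members, for a difference of -0.82 ± 0.054 (SD, n = 3 probe sets), or 1.76-fold lower. DNAJB9 is known to restrain ERN1 through HSPA5 and to be a target of spliced XBP1.

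DNAJC3, an inhibitor of eIF2 kinases and a co-chaperone in the lumen, read 0.39 and -0.39, a difference of -0.78 ± 0.62 (SD, n = 4 probe sets), or 1.71-fold lower. Its probe sets read -0.11, -0.50, -0.95 and -1.55, so that all lay below 0 but only 2 passed 1.5-fold. Without the farthest of them the gene lay at -0.52, inside 1.5-fold. DNAJC10, a disulfide reductase, lay at -0.23 ± 0.13 (SD, n = 5 probe sets) with all 5 below 0. DNAJB11, a binder of nascent chains, lay at 0.037 on 1 probe set. The 12 chaperones and co-chaperones together had a median of 0.028, with 2 of 12 (16.7%) at least 1.5-fold lower, against 4.38% of all genes.

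Among the disulfide enzymes, the paralogous oxidases ERO1A and ERO1B lay on opposite sides of 0. Both pass electrons from protein disulfide isomerase to oxygen. ERO1B read 0.36 in the control and -0.36 in the knockdown array, a difference of -0.71 ± 0.089 (SD, n = 2 probe sets), or 1.64-fold lower, from probe sets at -0.65 and -0.78.

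ERO1A read -0.21 and 0.21, a difference of 0.42 ± 0.58 (SD, n = 3 probe sets), from probe sets at -0.21, 0.54 and 0.93. Its probe sets thus did not share a direction, and it passed 1.5-fold upward only when probe sets that can match several transcripts were left out, which left the 1 at 0.93. PDIA3, the isomerase that works with the lectin chaperones, lay at 0.29 ± 0.19 (SD, n = 3 probe sets), all of them above 0. The other isomerases lay nearer 0. PDIA4 lay at -0.096 ± 0.11 (SD, n = 2 probe sets), PDIA6 at 0.076 ± 0.12 (SD, n = 4 probe sets) and P4HB, the founding isomerase, at -0.025 ± 0.16 (SD, n = 3 probe sets). The median of the 6 was 0.026. Without the probe sets that can match several transcripts, PDIA6 turned to -0.11 on the 1 probe set left.

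The 9 degradation genes had a median of -0.16, with 7 below 0. At least 1.5-fold lower or higher were 0 of 9, against 4.38% and 4.3% of all genes. With so few genes, a count of 0 does not set this role apart. The lowest were OS9, a lectin that picks out glycoproteins with trimmed sugars (-0.39 ± 0.084, SD, n = 2 probe sets, at -0.45 and -0.33), and HERPUD1, a membrane scaffold of the degradation complex (-0.38 ± 0.19, SD, n = 2 probe sets, at -0.52 and -0.25). SEL1L, the partner of the ubiquitin ligase SYVN1, lay at -0.16 ± 0.18 (SD, n = 4 probe sets). These 3 genes lay inside 1.5-fold.

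The EDEM proteins, which trim mannose from misfolded glycoproteins, were spread out. EDEM1 lay at -0.19 on 1 probe set, EDEM3 at -0.061 ± 0.13 (SD, n = 3 probe sets) and EDEM2 at 0.52 on 1 probe set, the highest difference of all 34 genes. The derlins, membrane proteins of the retrotranslocation channel, likewise lay apart. DERL1 lay at 0.32 ± 0.37 (SD, n = 4 probe sets, from -0.17 to 0.69), DERL2 at -0.20 ± 0.11 (SD, n = 2 probe sets) and DERL3 at -0.029 ± 0.22 (SD, n = 3 probe sets). Without the probe sets that can match several transcripts, DERL1 lay at 0.063.

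Both measured subunits of the SEC61 channel lay below 0. SEC61A1, the pore-forming subunit, read 0.48 in the control and -0.48 in the knockdown array, a difference of -0.95 ± 0.12 (SD, n = 2 probe sets), or 1.94-fold lower, the lowest of all 34 genes. Its probe sets read -1.04 and -0.87, close to each other, but both are of the kind that can match several transcripts, so the gene had no value without these. SEC61B, a small subunit, lay at -0.46 ± 0.63 (SD, n = 2 probe sets), with 1 probe set at -0.90 and the other at -0.014.

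In the order of all 17689 genes from the lowest difference, SEC61A1 held rank 284, ATF6 rank 288, DNAJB9 rank 395, DNAJC3 rank 433 and ERO1B rank 519. At the upper end, 5.4% of all genes exceeded EDEM2, 7.73% exceeded HSP90B1 and 8.38% exceeded ERO1A. Members just inside the 1.5-fold line were SEC61B (-0.46) below and EDEM2 (0.52) above; just outside it was ERO1B (-0.71).

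**Figure D3:**
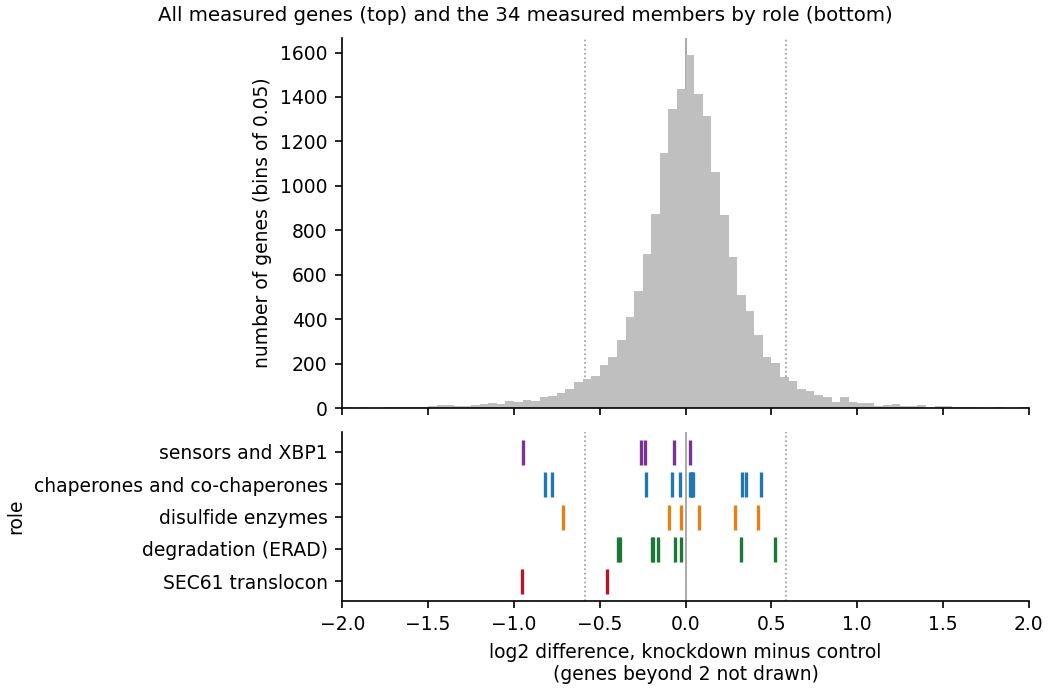
Top, number of genes in bins of 0.05 of the log2 difference, knockdown minus control; bottom, each measured member as a tick on the same axis, in a row for its role, with dotted lines at 1.5-fold. The members spread across the bulk of the distribution, with 5 ticks left of the lower dotted line and none right of the upper one.

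Other genes of the ER, in lists that hold no member, were described in the same way. These lists, like the members, were chosen with earlier results of these data known. Outside the list for the branch from EIF2AK3 to ATF4, 77 of 81 listed genes were measured. They had a median of -0.17, with 50 below 0, 8 at least 1.5-fold lower and 2 at least 1.5-fold higher. The share lower was 10.4%, against 4.38% of all genes, and the share higher 2.6%, against 4.3%.

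Genes of protein targeting and translocation had a median of -0.27 over 14 genes, with 1 (7.14%) at least 1.5-fold lower, against 4.38% of all genes. That gene was SSR3, a subunit of the translocon-associated complex beside the SEC61 channel, at -0.66 ± 0.22 (SD, n = 4 probe sets). Genes of glycan transfer and trimming had a median of -0.17 over 14 genes, 12 of them below 0. Of the 14, 2 (14.3%) passed 1.5-fold downward, against the same 4.38% of all genes. The lowest was LMAN1, a lectin that carries glycoproteins out of the ER, at -0.98 ± 0.35 (SD, n = 3 probe sets).

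Among 12 other disulfide enzymes the median was -0.28, and GPX8, an ER peroxidase, was lowest at -1.19 ± 0.56 (SD, n = 2 probe sets). Among 12 other chaperones and prolyl isomerases the median was -0.057, and CLGN, a relative of calnexin, was lowest at -0.88 on 1 probe set. Of 19 other degradation genes, 2 (10.5%) were lower and 1 (5.26%) higher by 1.5-fold, against 4.38% and 4.3% of all genes. Their median was -0.27. The lowest was the ubiquitin ligase MARCHF6 (-0.81 ± 0.77, SD, n = 5 probe sets, from -2.11 to -0.065), and the highest was the ligase RNF139 (0.72 on 1 probe set). Of 6 genes for the proteases that cut ATF6 and for the related CREB3 family, MBTPS2, the site-2 protease, was 1.85-fold higher at 0.89 ± 0.19 (SD, n = 2 probe sets, at 0.76 and 1.02), whereas MBTPS1, the site-1 protease, lay at -0.026 ± 0.11 (SD, n = 2 probe sets).

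Of 12 genes listed for the branch from EIF2AK3 to ATF4, 7 (58.3%) were at least 1.5-fold lower and 0 higher. The shares of all genes were 4.38% and 4.3%, and the median of the list was -0.74. The list is not limited to targets of ATF4. It was chosen with earlier results of these data known, so its share describes these arrays and is no independent check. ATF4, the transcription factor of this branch, lay at -0.87, and DDIT3 (CHOP), its target, at -0.88, each on 1 probe set. The lowest was ASNS at -1.68 and the highest PPP1R15B, a regulatory subunit of the eIF2 phosphatase, at 0.42, each on 1 probe set. EIF2AK3 itself lay at 0.028 and its activity was not measured, so whether these genes moved through it was not tested. The difference between this list and the members was not tested either, since each group had 1 array.

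**Figure D4:**
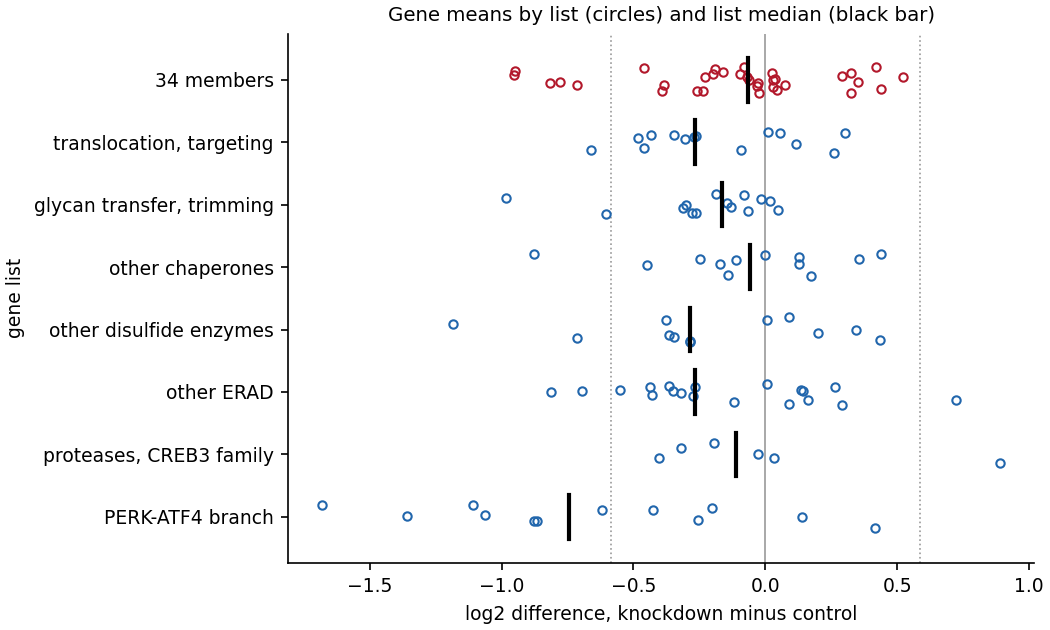
Log2 difference, knockdown minus control (horizontal axis), of each measured gene (circles) and the median (black bar) for the members and for 7 lists of other genes of the pathway; dotted lines mark 1.5-fold and vertical scatter has no meaning. The median of the members lies at -0.064 and that of the PERK-ATF4 branch at -0.74.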

How the data were processed

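Total RNA (3 µg per the labels' protocols) from 1 control and 1 knockdown culture was hybridised to 1 array each. The values the authors deposited were taken as log2; RMA, with no version, is named in the submitters' processing notes. The 2 values of all 44672 probe sets summed to 0 within 1e-06, so each is a signal minus the mean of both arrays. How and when they were centred, the log base, filters and genome build are not stated in those notes or labels; base 2 was taken because RMA works on it, and each fold rests on that. The number of arrays limits the precision.

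Of the probe sets, 34880 named 1 gene, 1619 several and 8131 none here, and 42 were array controls. Symbols were matched to RefSeq by gene identifier, which changed 0 of them. The difference was averaged over a gene's probe sets, with no filter added here. Probe sets that the array carries but the deposited values lack were not counted. Each share of all genes therefore covers only genes read by deposited probe sets that name 1 gene. The rule of size was 1.5-fold, with 2-fold beside it. All members were named or counted; of each other list at most the extreme gene each way was named, besides KDM4A, ATF4, DDIT3 and, chosen after its value was seen, MBTPS1. The members and lists were chosen with earlier results of these data known. The calculation was tested on simulated data with planted differences far past 1.5-fold and little noise. That test says nothing about genes near the 1.5-fold line. Python 3.11.15, numpy 2.4.6, pandas 2.3.3 and matplotlib 3.10.9 were used.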

Additional observations from a re-analysis of the deposited data

How the results depend on the processing

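No result has a replicate check, so leaving out a replicate was not possible. No paired analysis was possible because each group had 1 array. The brightest probe set per gene was not run, since centring leaves no levels. A median was taken as moved when it shifted by 0.1 or changed side of 0, and a count when it changed by over 1.5 times. Under the 2-fold rule 0 members were lower. Without the probe sets that can match several transcripts (suffix _x_at or _s_at), 27 members remained: 3 were lower (ATF6, DNAJB9 and ERO1B) and 1 higher (ERO1A), against 4.62% and 4.37% of all genes, and the medians were -0.032 for chaperones, -0.13 for disulfide enzymes and -0.46 for the translocon, where SEC61B alone was left; SEC61A1 and DNAJC3 dropped from the lower genes, the first having no probe set left. With the median over probe sets the sensors' median was -0.058, and the same 5 genes were lower. They also stayed lower with the median difference subtracted, among members with 2 or more probe sets (5 of 27, 18.5%, against 5.02% of such genes), and with probe sets given to several genes, which read PDIA5 at 0.18 and SYVN1 at -0.091. In that last setting HSP90B1 lay at 0.33 and ATF6B at 0.0016. Leaving out each member's probe set farthest from 0, chosen after seeing the data and by construction pulling toward 0, left 3 lower (DNAJB9, ERO1B and SEC61A1; 8.82% of 34, against 4.36% of all genes, where other genes kept every probe set), with medians of -0.0078 for sensors, -0.00039 for chaperones and -0.44 for the translocon. The members' median lay below 0 in each setting, and at -0.16 without the ambiguous probe sets.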

Other observations

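The genes named here were chosen after their values were seen. ERSE or ERSE-II matches lay in 37 of 27305 promoters, 10 of them members, and 20 of the other genes were measured. These 20 had a median log2 difference of -0.033, knockdown minus control, with 11 below 0. FICD, which attaches AMP to HSPA5 and removes it, held an ERSE and was lowest, at -1.34 on 1 probe set. SHCBP1 held an ERSE-II and lay at -0.92 on 1 probe set. At the other end RAD9A, a checkpoint clamp subunit, lay at 0.49 on 1 probe set.

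Further genes outside the members that held a match lay nearer 0. SERP1, a translocon-associated protein, lay at 0.15 ± 0.21 (SD, n = 4 probe sets), NUCB1, a calcium-binding protein, at -0.043 ± 0.0045 (SD, n = 2 probe sets), and ALG12, a mannosyltransferase, at 0.049 on 1 probe set. Of all 30 measured genes with either form, 3 (10.0%) were at least 1.5-fold lower (ERO1B, FICD and SHCBP1) and 0 higher, against 4.46% and 4.39% of 13854 genes whose promoters held neither.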
